A study of Mus musculus with 2 samples.

Results

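The miR-17-92 cluster and its paralogues, miR-106a-363 and miR-106b-25, together with the related single hairpin miR-92b, were represented by 30 of the 1900 mouse miRNA probes on the array. The members were taken by name, as every probe for either arm of the 16 hairpins, and comprised 14 guide strands and 16 passenger strands. The array compared colonic epithelial cells isolated from C57BL/6 mice 8 weeks old, either untreated (control, n = 1) or given 2.5% dextran sulfate sodium (DSS) in drinking water for 5 days (DSS, n = 1). DSS damages the lining of the colon and is used to model colitis. Both groups share the strain, age and tissue, and the sources used here do not say whether cells of several mice were pooled. Each condition is 1 array with 1 spot per member, so no difference below has a replicate check or a test, and a change in the mix of cells cannot be told apart from a change in miRNA per cell.

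A miRNA hairpin is cut by Dicer into a duplex, of which the guide strand is loaded into an Argonaute protein and pairs with target messages through its seed, while the passenger strand is usually degraded. The miR-17-92 primary transcript is a target of MYC and E2F factors, and its miRNAs favour proliferation and survival through targets such as Bcl2l11 and Cdkn1a. In the gut, the clusters are associated with proliferating crypt cells and with colorectal tumours.

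The clusters lie on 3 chromosomes of GRCm38.p6. The 6 hairpins of miR-17-92 span chr14:115043671-115044506 on the plus strand. The 6 hairpins of miR-106a-363 span chrX:52741693-52742567 on the minus strand. The 3 hairpins of miR-106b-25 span chr5:138165321-138165818 on the minus strand, within the gene Mcm7, which encodes a subunit of the replicative helicase. The hairpin of miR-92b lies apart at chr3:89227116-89227198. The RefSeq table held 28 of the 30 mature sequences, and miR-19a-5p and miR-363-5p were not matched. miR-19b-3p and miR-92a-3p are each made from a hairpin of miR-17-92 and one of miR-106a-363, so their probes cannot be assigned to a cluster.

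The guides carry 4 seeds, which decide the targets of each miRNA and along which detection at the limit used below differed. Their sequences are shown from 5′ to 3′ with bases 2 to 8, the seed, in capitals. The guides of the miR-17 seed come from all 3 clusters.
miR-17-5p: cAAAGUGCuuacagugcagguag
miR-20a-5p: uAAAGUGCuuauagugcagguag
miR-106a-5p: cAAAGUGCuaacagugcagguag
miR-20b-5p: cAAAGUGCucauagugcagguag
miR-106b-5p: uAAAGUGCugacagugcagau
miR-93-5p: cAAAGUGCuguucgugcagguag

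The miR-18 seed differs from that of miR-17 by a single base, and miR-19 has a seed of its own.
miR-18a-5p: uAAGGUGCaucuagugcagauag
miR-18b-5p: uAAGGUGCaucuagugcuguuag
miR-19a-3p: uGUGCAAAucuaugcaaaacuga
miR-19b-3p: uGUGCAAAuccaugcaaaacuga

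The miR-25 seed is shared by guides from hairpins at the 3′ end of each cluster and from miR-92b.
miR-25-3p: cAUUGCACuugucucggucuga
miR-92a-3p: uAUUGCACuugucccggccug
miR-92b-3p: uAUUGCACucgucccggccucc
miR-363-3p: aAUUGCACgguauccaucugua

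A probe was counted as measured when its spot was brighter than the mean of the blank spots plus 2 SD, which set a limit of 99.6 scanner units in the control and 130.9 with DSS. By this limit 16 of the 30 members were measured on both arrays (53.3%), against 52.4% of all miRNA probes. A single member, miR-106b-5p, passed the limit with DSS alone, as did 9.16% of all probes. None passed it in the control alone (3.95% of all probes), and 13 passed it on neither array (34.5% of all probes). The share of members detected was thus near that of the whole array. Guides and passengers were detected at like rates, with 8 of 14 guides and 8 of 16 passengers on both arrays.

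At this limit detection of the guides differed by seed, a pattern seen in few probes, close to the limit, and not tested. Of the 6 guides with the miR-17 seed 5 were measured on both arrays and miR-106b-5p with DSS alone. Of the 4 with the miR-25 seed 3 were measured on both, and miR-363-3p on neither. None of the 2 guides with the miR-18 seed was measured on either array (91.0 and 128.6 for miR-18a-5p, 89.2 and 124.8 for miR-18b-5p), and none of the 2 with the miR-19 seed. miR-19b-3p, which is made from a pair of clusters, gave 97.5 in the control and 124.2 with DSS, below both limits. miR-19a-3p gave 93.4 and 118.9. Spot brightness of different probes does not rank the amounts of their miRNAs, since each probe binds with its own strength. These values therefore set only each probe against the limit of its array. Fewer guides lay above the mean of the brightest negative control spots, given below, on both arrays. They were 2 of the 6 with the miR-17 seed, 2 of the 4 with the miR-25 seed and none of the others.

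By hairpin, both arms were measured on both arrays for 4 of 16 (miR-17, miR-25, miR-92a-2 and miR-92b). The guide alone was measured for 5 (miR-20a, miR-20b, miR-92a-1, miR-93 and miR-106a), the passenger alone for 4 (miR-18a, miR-18b, miR-106b and miR-363), and neither arm for 3 (miR-19a, miR-19b-1 and miR-19b-2). The guides of the hairpins miR-92a-1 and miR-92a-2 are the same molecule and were read by 1 probe. Among the probes that belong to 1 cluster, 4 of 10 were measured on both arrays for miR-17-92, 5 of 10 for miR-106a-363 and 4 of 6 for miR-106b-25. Each count of a cluster rests on few probes, and the difference between clusters was not tested.

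**Figure D1:**
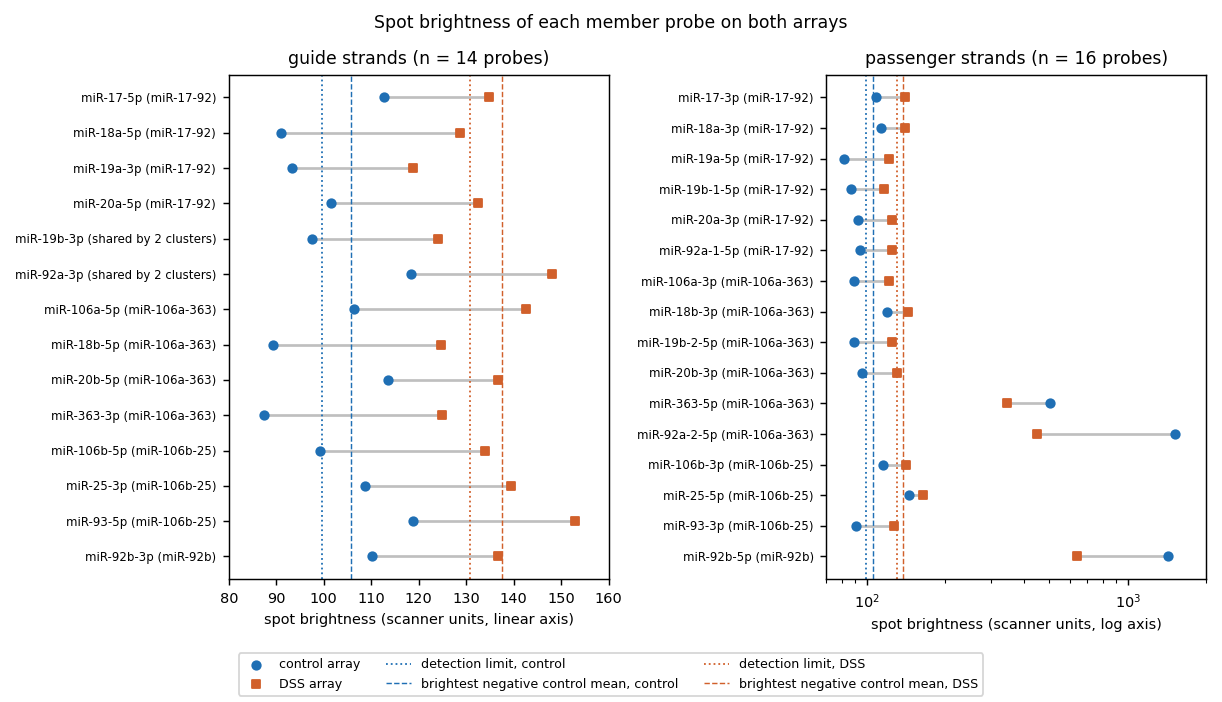
Spot brightness of the 14 guide probes (left, linear axis) and the 16 passenger probes (right, log axis) on the control array (circles) and the DSS array (squares), 1 spot each, joined by a line, with each array's detection limit (dotted) and the mean of its brightest set of negative control spots (dashed). The guides stay close to the limits on both arrays, and 3 passengers, miR-92b-5p, miR-92a-2-5p and miR-363-5p, stand far above them and are dimmer on the DSS array before scaling.

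The measured guides were all dim. The 8 guides measured on both arrays gave between 101.6 and 118.8 in the control and between 132.4 and 152.9 with DSS. As a reference without a target, the brightest set of negative control spots averaged 105.8 (SD 2.34, 8 spots) on the former and 137.6 (SD 8.01, 16 spots) on the latter. Above these means on both arrays lay 4 of the 14 guides, namely miR-25-3p, miR-92a-3p, miR-93-5p and miR-106a-5p. Single negative control spots reached higher than these means: those of Negative Control 1 on the DSS array ran from 123.0 to 156.5, a range that holds all 8 guides. No guide can therefore be told from a probe without a target on both arrays. Of all 30 members 12 lay above both negative control means, against 42.7% of all miRNA probes.

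Within this narrow range, which also holds negative control spots, the measured guides hardly differed between the arrays on the scale defined next. With the blank mean subtracted and no offset they ran from −0.30 for miR-17-5p to 0.92 for miR-106a-5p. Differences below are DSS minus control on the log2 scale after background correction with an offset of 50 and quantile normalisation, unless another scale is named, and the offset shrinks the folds of dim probes. The miR-17 seed group ran from −0.15 for miR-17-5p, the cluster's namesake (112.8 in the control and 134.9 with DSS), to 0.13 for miR-106a-5p (106.5 and 142.7). miR-93-5p, which targets Cdkn1a, differed by 0.12 (118.8 and 152.9). miR-20b-5p was at −0.12 (113.6 and 136.6) and miR-20a-5p, an E2F1 regulator, at −0.04 (101.6 and 132.4). The group thus had 2 members above 0 and 3 below.

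In the miR-25 seed group miR-92a-3p, which targets the integrin subunit Itga5, differed by 0.04 (118.4 in the control and 148.0 with DSS). miR-25-3p differed by 0.02 (108.7 and 139.4) and miR-92b-3p by −0.06 (110.2 and 136.7). miR-106b-5p (99.1 and 133.9) passed only the DSS limit and lay below the negative control mean there, so no fold is given. The 8 differences are smaller than the technical spread of a single log2 difference, 0.16, estimated from 32 negative control spots per array. Those spots were not quantile normalised, and with 1 array per condition their spread does not hold the variation between replicate arrays. The median over the 8 guides was −0.01, against −0.004 over all 995 miRNAs measured on both arrays. That median was −0.90 with scaling to the spike control spots, which moved the median of all miRNAs to −1.02.

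No guide reached 2-fold in either direction. Of the 995 miRNAs measured on both arrays 0.503% were higher with DSS by 2-fold or more and 1.01% were lower, so that 0 of 8 is near the background. At 1.5-fold, 0 of the 16 members were higher and 1, a passenger, was lower, against 3.22% and 4.22% of all. In the authors' deposited table, which carries no offset, miR-106a-5p went from 7.76 to 16.4, a log2 difference of 1.08. Among the authors' deposited values 8.94% of miRNAs were at least 2-fold higher. On the control array the spot of miR-106a-5p (106.5) lay inside the range of the Negative Control 3 spots, from 104.2 to 111.1, so its fold is poorly determined.

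The passengers formed 2 kinds of probe: 3 were bright and the other 13 dim or not measured. Across the array 26.5% of probes whose miRNA has a run of at least 3 G had a control spot of at least 300. Of those without such a run 3.19% did. The sequences of the passengers that held such a run are shown from 5′ to 3′ with it in capitals.
miR-92b-5p: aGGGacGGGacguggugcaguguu
miR-92a-2-5p: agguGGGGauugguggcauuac
miR-25-5p: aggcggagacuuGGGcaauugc
miR-92a-1-5p: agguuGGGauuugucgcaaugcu
miR-17-3p: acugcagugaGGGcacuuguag
miR-106b-3p: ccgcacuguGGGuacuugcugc

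miR-92a-2-5p, the passenger of the miR-92a hairpin in miR-106a-363 (chrX:52741892-52741913, minus strand), had a spot of 1521 in the control and of 449.5 with DSS. After normalisation it was 2.24-fold lower with DSS, a log2 difference of −1.16. It was the single member past 2-fold, 1 of 16 measured on both arrays, against 1.01% of all such miRNAs that were at least 2-fold lower. In the authors' deposited table it went from 804 to 258 (−1.64), where 4.12% of miRNAs were at least 2-fold lower. Its guide, miR-92a-3p, differed by 0.04, but that probe cannot be told from one without a target and also reads the copy made from miR-17-92. The values of the strands can therefore not be set against each other. With the background value of each spot subtracted, a setting described below, they were 0.37 (guide) and 0.25 (passenger).

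miR-92b-5p, the passenger of miR-92b (chr3:89227165-89227188, minus strand), gave 1419 in the control and 637.0 with DSS. The difference was −0.28 after quantile normalisation and −1.26 without scaling. miR-363-5p gave 501.5 and 345.0, with −0.18 after normalisation and −0.71 without scaling. Its guide, miR-363-3p, was below the limit on both arrays (87.5 and 125.0). All 3 bright passengers were thus dimmer on the DSS array before scaling, and only the first stayed past 2-fold after quantile normalisation.

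Bright probes in general were dimmer on the DSS array before scaling. The set was chosen by the control spot, which favours probes higher in the control. Of the 196 probes measured on both arrays with a spot of at least 300 on the control array, 91.3% were lower without scaling, with a median of −0.63, and 24.5% were at least 2-fold lower. Chosen by a DSS spot of at least 300 in its place, 155 probes had a median of −0.55 and 87.7% were lower. Over all 995 miRNAs without scaling 5.13% were lower by 2-fold or more, with 2 members among them, and 0.101% were higher, with no member. Against that median the unscaled value of miR-363-5p was close and those of miR-92b-5p and miR-92a-2-5p were further down. After quantile normalisation the same 196 probes had a median of 0.00 and a central 95% from −1.11 to 0.91. miR-92a-2-5p lay just below that range, and 4.59% of these probes were lower by 2-fold or more and 1.53% higher. Among the 155 probes chosen by the DSS spot the central 95% ran from −1.01 to 0.98, and 2.58% were lower by 2-fold or more. Among all 995 it held position 5 from the lowest. The neighbours in that order were miR-99b-5p (−2.02), miR-6956-5p (−1.35) and miR-486b-3p (−1.21) below it and miR-7224-5p, miR-5621-5p and also miR-7030-5p (each −1.10) above it. At the other end, the nearest miRNAs to miR-106a-5p that were brighter than the median were miR-6916-5p (0.12), miR-6950-5p (0.13) and miR-1895 (0.13).

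**Figure D2:**
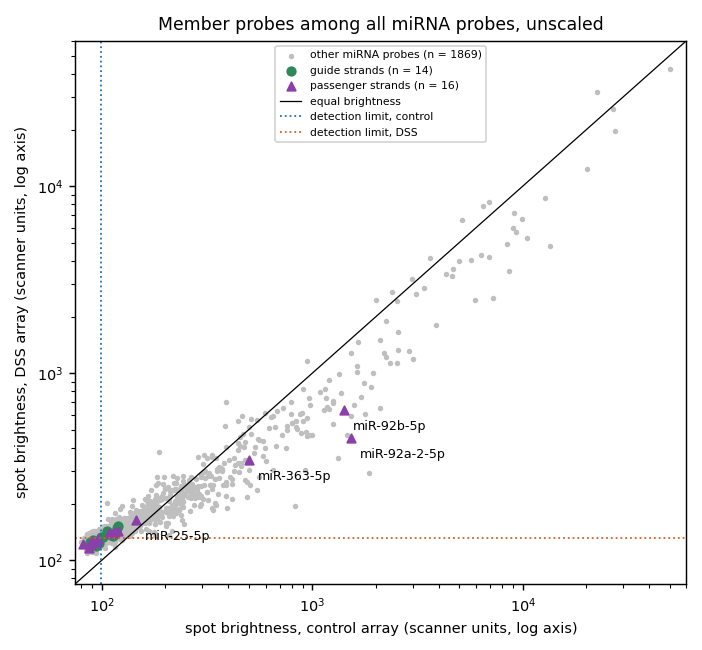
Spot brightness of all miRNA probes on the control array (x) and the DSS array (y), both log axes and unscaled, with the guides as circles and the passengers as triangles among the other probes (grey), the line of equal brightness and both detection limits. The guides sit in the dim corner, and miR-363-5p, miR-92b-5p and miR-92a-2-5p lie below the line of equal brightness, where most bright probes also lie.

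The files also hold a background value for each spot, and its share of the spot differed among the bright passengers and between the arrays. Over all 995 measured miRNAs the median share was 88.4% in the control and 82.1% with DSS. For miR-92b-5p it was 1447 in the control and 660.5 with DSS, or 102% and 103.7% of the spot. For miR-92a-2-5p it was 1283 and 253.6, or 84.3% and 56.4% of the spot. For miR-363-5p it was 453.6 and 256.0, or 90.4% and 74.2%. Among the 196 bright probes the median share was 84.3% in the control and 77.0% with DSS. The 8 spots around miR-92b-5p had a median brightness of 95.0 and 129.5 on the control and DSS arrays, and a median background of 94.8 and 135.9. Those around miR-363-5p had a median brightness of 93.9 and 130.3 and a median background of 87.3 and 104.2. The high background values of both probes were thus not shared by most spots next to them. Around miR-92a-2-5p the median brightness was 138.7 and 157.2, and the median background 121.6 and 122.0. The brightest neighbour of miR-92a-2-5p, looked up after its values were seen, was miR-3072-5p (1631 and 1013).

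Subtraction of that background turned the value of miR-92a-2-5p. What remained of its spot was 238.2 in the control and 195.8 with DSS, and after quantile normalisation the difference was 0.25 in place of −1.16. miR-363-5p kept 47.9 and 89.0 (0.56). miR-92b-5p kept nothing on either array. With this subtraction 0 members were at least 2-fold different, against 2.91% of all miRNAs higher and 4.02% lower. The sources used here do not say what the background value covers. Its part in the difference of miR-92a-2-5p was not tested.

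The 5 other measured passengers were dim but above the negative control means on both arrays. All but miR-25-5p lay within the range of the Negative Control 1 spots on the DSS array, from 123.0 to 156.5. Like the guides, those passengers cannot be told from a probe without a target on both arrays. miR-25-5p gave 145.0 in the control and 163.6 with DSS (−0.001). miR-18b-3p gave 119.0 and 144.1 (−0.04) and miR-106b-3p 115.4 and 140.8 (−0.05). miR-18a-3p gave 113.0 and 139.4 (−0.05), and miR-17-3p, the former miR-17*, 108.1 and 140.0 (0.04). None of the 5 differed by more than the technical spread of 0.16. The passengers measured on neither array were miR-19a-5p, miR-20a-3p, miR-19b-1-5p, miR-92a-1-5p, miR-106a-3p, miR-20b-3p, miR-19b-2-5p and miR-93-3p.

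Over the 8 measured passengers the median difference was −0.05, with 7 lower and 1 higher, against −0.01 over the 8 guides, with 4 lower and 4 higher. The difference between guides and passengers was not tested. Without the 3 bright passengers the median of the others was −0.04. The counts depend on the scaling: over all 16 members 5 were higher and 11 lower with quantile normalisation, 3 and 13 when scaled to the median, 12 and 4 when scaled to the 75th percentile, 8 and 8 without any, and 0 and 16 when the arrays were scaled to the spike control spots. Members lower by 2-fold or more numbered 2 with median scaling (6.33% of all miRNAs), 2 at the 75th percentile (4.12%), 2 with the blank mean subtracted (5.93%) and 6 at the spike control spots (55.2%). Relative to the median of all miRNAs on the spike control scale, the guides lay 0.13 above and the passengers 0.003 below.

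**Figure D3:**
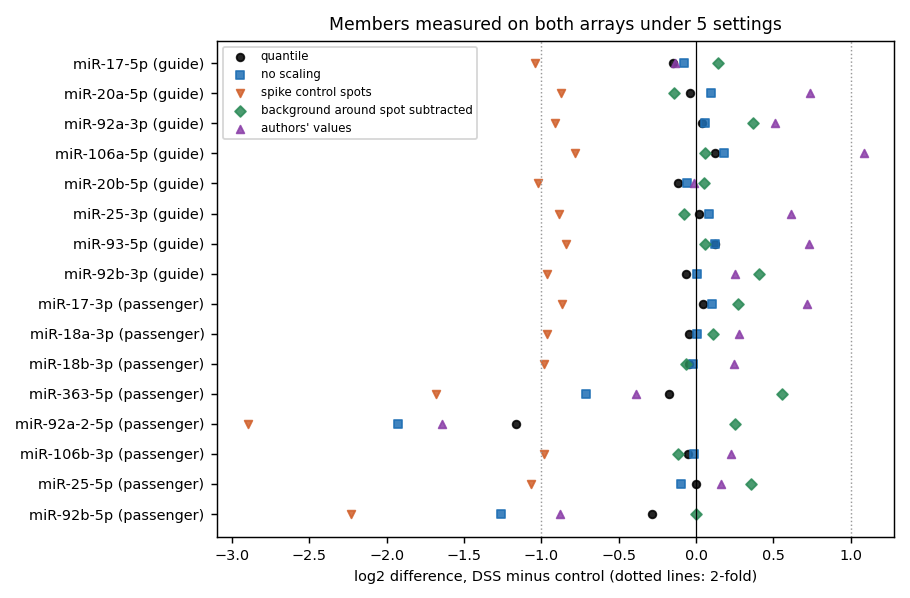
Log2 difference, DSS minus control, of the 16 members measured on both arrays under 5 settings, 1 value per setting and no error since each condition is 1 array, with dotted lines at 2-fold. The guides and dim passengers lie within 0.15 of 0 with quantile normalisation and near −1 with scaling to the spike control spots. miR-92a-2-5p is at −1.16 with quantile normalisation and 0.25 when the background value of each spot was subtracted. The legend calls that setting background around spot subtracted, although what the value covers is not stated.

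By cluster, the median difference of the probes that belong to 1 cluster was −0.04 for miR-17-92 (4 probes, from −0.15 to 0.04), −0.12 for miR-106a-363 (5 probes, from −1.16 to 0.13) and 0.01 for miR-106b-25 (4 probes, from −0.05 to 0.12). Without the bright passengers the median of miR-106a-363 was −0.04. The guides alone had −0.09 in miR-17-92 (miR-17-5p and miR-20a-5p), 0.003 in miR-106a-363 (miR-20b-5p and miR-106a-5p) and 0.07 in miR-106b-25 (miR-25-3p and miR-93-5p). Over both strands the ranges of the 3 clusters overlap. After quantile normalisation the guides of miR-17-92 (from −0.15 to −0.04) and of miR-106b-25 (from 0.02 to 0.12) did not overlap. Each cluster has 2 such measured probes, no test was made, and every value was within the technical spread of 0.16. Without scaling they overlapped, from −0.07 to 0.09 in miR-17-92 and from 0.08 to 0.13 in miR-106b-25. With scaling to the spike control spots each cluster median was below 0, and with 75th percentile scaling each was above 0.

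Of the bright passengers, both with a sequence were rich in G. miR-92b-5p has 50% G (12 of 24 bases), miR-92a-2-5p 45.5% (10 of 22) and miR-25-5p 40.9% (9 of 22). These are the 3 members with at least 40% G among the 28 with a sequence, and all 3 were measured on both arrays. The guides hold between 17.4% and 34.8% G and none contains a run of 3 G. Of the 6 passengers with the motif GGG, searched on the RNA strand, 5 were measured on both arrays, the exception being miR-92a-1-5p.

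The miR-92a passengers are close in sequence. Counted from 1 at the 5′ end, the first 18 bases of miR-92a-1-5p and miR-92a-2-5p differ by 3 substitutions, U5G, U12G and C15G, each to a G in miR-92a-2-5p. The probe of miR-92a-1-5p stayed below the limit on both arrays (94.4 and 124.8), while that of miR-92a-2-5p was above it. Since the pair was picked after its values were seen, comes from different loci and both sequences hold GGG, it does not show an effect of composition. The probe sequences themselves were not used here, and whether the RNA bound to each spot was the named passenger was not tested.

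Across the array brightness differed by composition, but not in step with G. The motif GGG occurs in 30.3% of the 1617 probes with a RefSeq sequence. Of the probes with it 73.7% were measured on both arrays and 26.5% had a spot of at least 300 on the control array, against 44.1% and 3.19% of those without it. Of the 316 probes whose miRNA has at least 40% G, 91.5% were measured on both arrays, with a median unscaled difference of −0.37. Below that share there was no steady order: 50% of probes were measured on both arrays at under 20% G, 32.0% from 20 to 30% G, and 51.0% from 30 to 40% G. Spearman's rho between the share of G and spot brightness was 0.42 in the control and 0.53 with DSS over the 28 members, and 0.39 and 0.34 over the 1617 probes, which share an array and a hybridisation and are not independent. This motif and these composition classes were chosen after the values were seen.

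**Figure D4:**
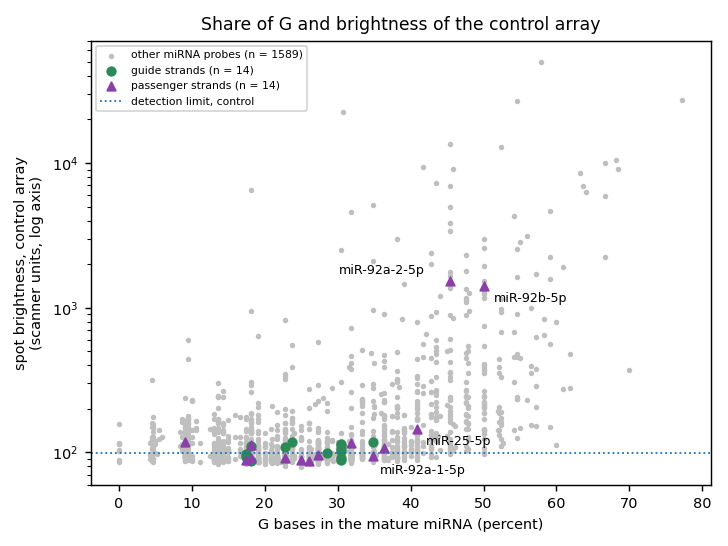
Share of G bases in the mature miRNA (x, percent) and spot brightness on the control array (y, log axis) for guides (circles), passengers (triangles) and the other probes with a sequence (grey), 1 spot each, with the detection limit dotted. miR-92b-5p at 50% G and miR-92a-2-5p at 45.5% stand with the bright G-rich probes of the array, and all guides are at or below 34.8% G and near the limit.

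Most miRNAs with seeds like those of the clusters were near or below the limit. miR-32-5p and miR-367-3p, which carry the miR-25 seed, both passed it with DSS alone (132.0 and 131.5 there, against a limit of 130.9). Both lay below the mean of the brightest negative control spots on that array, 137.6. Of 9 members of the miR-290 and miR-302 families, miRNAs of embryonic stem cells, miR-292a-3p was measured on both arrays (0.09), 4 with DSS alone and 4 on neither. All 4 members of the miR-130 and miR-301 family were measured on neither. Of all probes 52.4% were measured on both arrays, 9.16% with DSS alone and 34.5% on neither. The counts of these small families were not tested.

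MYC, which induces miR-17-92, represses another group of miRNAs, among them let-7, miR-26 and miR-29. Of 18 such miRNAs 14 were measured on both arrays, 12 of them higher and 2 lower after quantile normalisation, against 52.4% of all probes measured on both arrays, of which 479 were higher and 503 lower. The list had a median of 0.19 and a range from −0.11 for let-7g-5p to 1.07 for miR-150-5p. The last, a lymphocyte miRNA, was the 1 of 14 at least 2-fold higher, against 0.503% of all miRNAs. With scaling to the spike control spots the list median lay 0.17 above that of all miRNAs, against 0.13 for the 8 cluster guides. The 16 cluster members, passengers included, lay 0.05 above. Of the marker sets described below, gut epithelial miRNAs lay 0.17 above on this scale, leukocyte 0.32, red cell 0.37 and endothelial 0.11. Smooth muscle and fibroblast miRNAs lay 0.13 below.

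Markers of the labelled cells were measured, and so were markers of other cells. Of all miRNA probes 52.4% were measured on both arrays. Of 8 gut epithelial miRNAs 7 were measured on both arrays (spots from 110.8 to 335.6 in the control and from 163.0 to 366.4 with DSS, median difference 0.43). Of 6 leukocyte miRNAs 3 were measured on both (from 106.3 to 112.8 and from 149.9 to 202.4, median 0.24), with miR-142a-3p and miR-155-5p on neither array. Of 3 red cell miRNAs 2 were measured on both (from 124.1 to 148.7 and from 179.2 to 195.6, median 0.46). Of 5 smooth muscle and fibroblast miRNAs 4 were (from 106.5 to 654.2 and from 138.1 to 588.4, median 0.05). The brightest of them was miR-145a-5p. The endothelial miR-126a-3p (104.3 and 133.1) differed by −0.06. These medians depend on the scaling. Without scaling they were 0.11 (gut epithelial), 0.27 (leukocyte), 0.32 (red cell) and −0.18 (smooth muscle and fibroblast), against −0.06 over all miRNAs. The endothelial miR-126a-3p was then at 0.05. With scaling to the spike control spots every one of these marker values lay below 0, as did those of the cluster members. The part of such cells in the values of the clusters was not tested.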

How the data were processed

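Total RNA was labelled with Hy5 and hybridised to 1-colour miRNA arrays, 1 array for each of 2 samples, per the labels' protocols. The deposited scanner files give a median spot intensity and a background intensity for 3200 spots, combined from scans at 3 gains per the file headers. The authors' deposited table holds 1 intensity per probe. How it was made is not recorded in the sources used here. Each value equals the spot minus the trimmed blank mean times 0.563 (control) or 0.787 (DSS), within 7.88e-06, with a median of 25 per array.

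Background was corrected by normexp with an offset of 50 over all spots (limma 3.58.1 in R 4.3.3), and values were put on the log2 scale and quantile normalised over 1899 miRNA probes, leaving out 1 probe with a poor flag. The detection limit was the mean plus 2 SD of 896 blank spots without the 45 highest and 45 lowest. A difference was counted from 2-fold. Control and DSS groups came from the labelled agent. Precision is limited by the number of arrays. Simulated arrays were also used to try out the steps. No outcome of that trial is given here, so it is no check on the differences of the dim members. Members, lists, strands and the rule for naming miRNAs were chosen with earlier results of these data known. The rule names every member, listed miRNAs, and the 3 miRNAs next to the members at each end of the ranking if brighter than the median. Alternatives covered scaling, background correction, the authors' values, filters, the detection limit and the fold.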

Additional observations from a re-analysis of the deposited data

How the results depend on the processing

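Of 16 members measured on both arrays, 14 remained with a limit at 3 SD above the blanks and 12 with a limit at the brightest negative control mean. Members at least 2-fold lower numbered 1 with quantile normalisation and 2 each with median scaling, 75th percentile scaling, no scaling and blank subtraction. They numbered 6 with scaling to the spike control spots (where 55.2% of all miRNAs were). They numbered 0 when the background value of each spot was subtracted, which turned miR-92a-2-5p to 0.25. Members at least 2-fold higher numbered 0, and 1 in the authors' values. With scaling to the spike control spots the medians were −0.90 (guides), −1.03 (passengers), −0.92 (miR-17-92), −1.02 (miR-106a-363) and −0.93 (miR-106b-25). In the authors' values they were 0.56 (guides), 0.19 (passengers), 0.50 (miR-17-92), −0.01 (miR-106a-363) and 0.42 (miR-106b-25), against 0.21 over all miRNAs. With blank subtraction they were 0.40 (guides), 0.03 (passengers), 0.33 (miR-17-92), −0.18 (miR-106a-363) and 0.25 (miR-106b-25), against 0.05 over all miRNAs. With 75th percentile scaling guides were at 0.17 and miR-17-92 at 0.15. With that background subtracted the medians were 0.18 (passengers), 0.13 (miR-17-92) and 0.059 (miR-106a-363). Among probes brighter than the median, passengers were at −0.23 (4 probes) and miR-106a-363 at −0.67, and no guide or miR-17-92 probe was left. The value of miR-106a-363 then rests on miR-92a-2-5p (−1.16) and miR-363-5p (−0.18) alone. The causes were not tested. The negative control limit for differences, the medians without the 3 bright passengers and the choice of bright probes by the DSS spot were chosen after seeing the data. No paired analysis was possible because each group holds 1 array.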
